A study of Mus musculus with 9 samples.

Results

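The 10 genes described here mark whether a cell holds an epithelial or a mesenchymal state. They are Cdh1, Epcam, Esrp1, Cldn4, Cldn6 and Cldn7 on the epithelial side and Cdh2, Zeb1, Zeb2 and Vim on the mesenchymal side, taken by name, and 8 of the 10 could be read from a locus of their own among the 54914 transcribed loci of the table. Cldn6 and Cldn7 lie in intervals that were merged with neighbouring genes and have no level of their own. RNA-seq was carried out on 3 libraries each of spermatogonial stem cells (SSC), iPSC derived from SSC (SSCiPSC) and iPSC derived from fetal fibroblasts (fiPSC). All 3 groups came from mice with 2 engineered alleles. Gt(ROSA)26Sortm1(rtTA*M2)Jae gives a doxycycline-dependent transactivator, and Col1a1tm3(tetO-Pou5f1,-Sox2,-Klf4,-Myc)Jae gives the 4 reprogramming factors under a promoter that it switches on. SSC were taken from testes of pups on the sixth day after birth, freed of attaching somatic cells by plating, enriched with magnetic beads against Gfra1 and used at passage 0. Fibroblasts came from male mid-gestation fetuses. Both kinds of iPSC were clonal lines grown from picked colonies, kept with LIF. The labels give passages 10 to 11, whereas the study's methods describe purification from feeder cells with beads against SSEA1 at later passages. Doxycycline had been withdrawn earlier by the same methods, while the labels list it in the medium. The study calls the 9 samples biological, but whether those of a group came from separate animals or lines is not said, so that the p-values measure the spread between these libraries, part of which may be technical.

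In an epithelium, neighbouring cells are held together by E-cadherin (Cdh1) at adherens junctions and sealed by claudins at tight junctions, with EpCAM (Epcam) as a further adhesion molecule of the cell surface. Zeb1 and Zeb2 are zinc finger repressors that bind E-box sequences in the promoters of Cdh1 and other epithelial genes, and in an epithelial to mesenchymal transition (EMT) E-cadherin gives way to N-cadherin (Cdh2) while the intermediate filament vimentin (Vim) is gained. Esrp1 is a splicing factor that keeps epithelial exons in its target transcripts. Reprogramming of fibroblasts is known to pass through the opposite, mesenchymal to epithelial, transition. Germ line stem cells are another starting point. The comparison of SSCiPSC with SSC shows how these genes stood in the Gfra1-enriched fraction and in the iPSC. That fraction also held transcripts of somatic testis cells, given below.

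Promoter windows from RefSeq (GRCm38.p6, 250 bases before to 50 after the start site) were at hand for 6 of the 10 genes, namely Epcam, Cldn4, Cldn6, Cldn7, Zeb2 and Vim. The windows of Epcam and Cldn4 are shown because both genes could be measured, both rose in the iPSC and both hold the E-box letters that Zeb proteins are known to bind. Capitals mark each CACCTG and its reverse complement CAGGTG, so that both strands were searched.
Epcam, chr17:87635729-87636028, plus strand: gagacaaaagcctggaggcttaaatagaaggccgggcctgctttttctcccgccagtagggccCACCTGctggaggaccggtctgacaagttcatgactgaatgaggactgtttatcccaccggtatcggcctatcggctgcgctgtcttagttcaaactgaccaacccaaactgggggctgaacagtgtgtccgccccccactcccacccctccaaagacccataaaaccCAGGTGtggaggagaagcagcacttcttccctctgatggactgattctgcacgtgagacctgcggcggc
Cldn4, chr5:134946885-134947184, minus strand: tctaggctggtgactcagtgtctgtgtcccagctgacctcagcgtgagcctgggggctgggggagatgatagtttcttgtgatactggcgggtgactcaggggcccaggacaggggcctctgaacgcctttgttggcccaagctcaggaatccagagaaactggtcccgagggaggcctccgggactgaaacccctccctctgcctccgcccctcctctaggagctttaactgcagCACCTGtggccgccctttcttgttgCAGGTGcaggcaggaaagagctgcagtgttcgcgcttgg
In Epcam the capitals begin 187 and 19 bases before the start site. In Cldn4 one match begins 14 bases before it and the other at base 12 after it. The window of Cldn6 and 1 of the Cldn7 windows also held 2 matches each, while those of Vim and Zeb2 held none. Of all 32851 windows 20.2% held at least 1 match and 2.88% held 2 or more. A match in letters is a description of the sequence and no binding was measured here.

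Levels are FPKM, fragments scaled by transcript length and by library size, and are read at 1 locus per gene. Cdh2 was split over 19 loci, Zeb1 over 8 and Zeb2 over 7, which limits the comparison of levels between genes. Depth was unequal. Estimated from the steps between low values, the SSC libraries held about 1770000, 4630000 and 1380000 fragments and the iPSC libraries between 13200000 and 17500000, which is 2.84 to 12.6 times as deep. A share of 18.9% to 35.4% of loci was listed at 0 in SSC against 9.64% to 13.9% in iPSC. Across loci, which are not independent, the rank correlation was 0.747 to 0.806 between SSC libraries, 0.909 to 0.938 between any pair of iPSC libraries and 0.438 to 0.532 between SSC and iPSC.

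**Figure D1:**
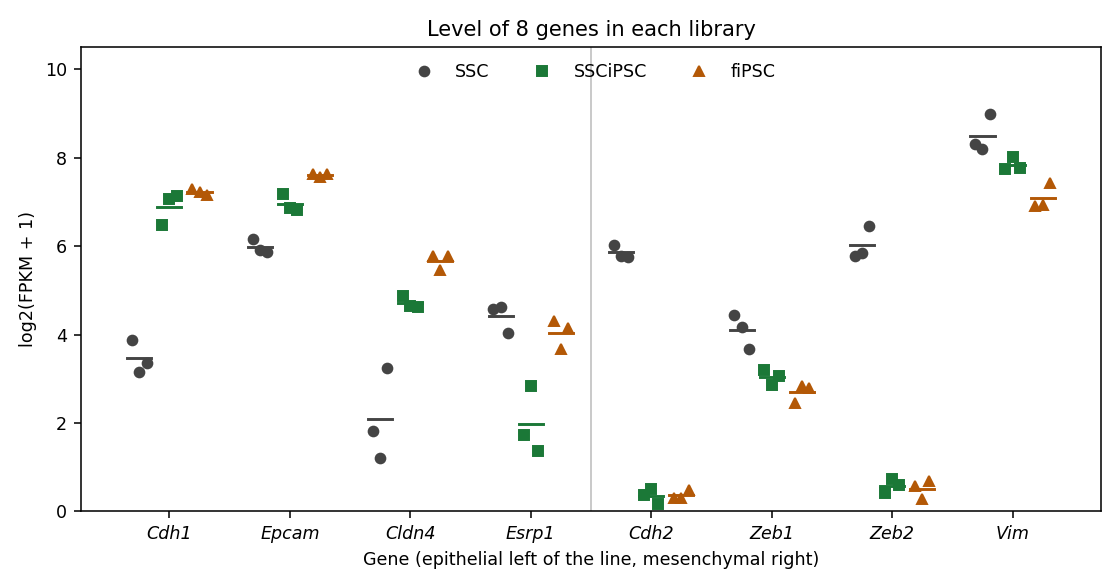
Level of the 8 measured genes as log2(FPKM + 1) in each of the 9 libraries (circles SSC, squares SSCiPSC, triangles fiPSC, short lines the mean of 3 libraries). Cdh2 and Zeb2 lie near 0 in all 6 iPSC libraries, Cdh1 and Cldn4 lie higher in the iPSC than in SSC, and Esrp1 is lowest in SSCiPSC.

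SSCiPSC were compared with SSC to see how the 2 gene groups stood after reprogramming of the germ line cell. Of the 8 genes 7 passed the threshold (limma on log2(FPKM + 1), Benjamini-Hochberg adjusted p below 0.05 over 36544 loci), against 50.3% of all loci tested. Cdh1, Epcam and Cldn4 rose (26.2% of loci were called higher), and Cdh2, Zeb1, Zeb2 and, of the epithelial group, Esrp1 fell (24.1% were called lower). Cdh2 and Zeb2 were below 1 FPKM in every iPSC library and entered the test only through SSC. Their direction was thus fixed by the filter. Vim did not pass. An exact permutation test of 3 against 3 libraries cannot go below p = 0.1, and all 8 genes reached that value, their groups not overlapping (background 59.8% of loci). After median-ratio scaling the groups of Vim overlapped, and after quantile normalization those of Epcam, which left 7.

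Cdh1 (locus at chr8:106603018-106670582 on GRCm38, spanning the gene) was at 13.6, 7.92 and 9.32 FPKM in the 3 SSC libraries, at 88.6, 132 and 141 in SSCiPSC and at 156, 149 and 141 in fiPSC. Every iPSC library lay far above every SSC library. The mean was 11.7 times as high in SSCiPSC as in SSC, a log2 fold change of FPKM + 1 of 3.43 (SE 0.26, limma adjusted p = 0.000194). SSC held about 57 to 162 fragments of the gene per library, so that the low level rests on counted reads.

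Epcam (chr17:87636038-87650963) was already well expressed in SSC, at 70.5, 59.4 and 57.1 FPKM, and stood at 145, 116 and 112 in SSCiPSC and 197, 188 and 198 in fiPSC. The 3 groups did not overlap and followed each other in that order. SSCiPSC exceeded SSC by a log2 fold change of 0.98 (SE 0.15, limma adjusted p = 0.00237). Under quantile normalization this difference shrank to 0.19 on the log2 scale (limma adjusted p = 0.426), and the call was lost.

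Cldn4 (chr5:134944927-134947545, a locus without a strand) encodes a tight junction claudin. It was at 2.53, 1.32 and 8.52 FPKM in SSC, at 28.2, 24.1 and 23.7 in SSCiPSC and at 53.5, 43.3 and 54.1 in fiPSC. The 3 groups did not overlap, and the SSC libraries held only about 8, 11 and 21 fragments of it. The rise in SSCiPSC was 6.15-fold in the mean and 2.62 on the log2 scale (SE 0.50, limma adjusted p = 0.00547). Without SSC replicate 3, the highest of its group, the ratio of the means was 13.2.

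Esrp1 (chr4:11331824-11386881) went the other way. It was at 22.8, 23.5 and 15.5 FPKM in SSC, at 2.33, 6.09 and 1.56 in SSCiPSC and at 18.7, 11.7 and 16.6 in fiPSC. SSCiPSC were the only one of the 3 groups whose libraries all lay below 7 FPKM, and SSC and fiPSC overlapped. The mean was 6.20 times as high in SSC as in SSCiPSC, a log2 fold change of -2.44 (SE 0.41, limma adjusted p = 0.00316). Without SSCiPSC replicate 2, the highest of its group, the ratio was 10.6.

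Of the mesenchymal genes, Cdh2 (chr18:16601463-16808425) is the N-cadherin gene. It was at 64.0, 54.1 and 53.4 FPKM in SSC, at 0.298, 0.429 and 0.116 in SSCiPSC and at 0.237, 0.223 and 0.408 in fiPSC. In the iPSC this corresponds to between 8 and 31 fragments per library. The mean in SSC was 203 times that in SSCiPSC, and the log2 fold change of FPKM + 1, which understates it, was -5.51 (SE 0.20, limma adjusted p = 2.78e-05). With the gene's loci summed it was -8.39 and with a pseudocount of 0.1 it was -7.32. The same interval holds 18 further loci without a strand, and the mean of each of them was lower in SSCiPSC and in fiPSC than in SSC.

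Zeb2 (chr2:44988849-45117360) gave a like picture. SSC stood at 53.8, 56.1 and 87.4 FPKM, SSCiPSC at 0.322, 0.666 and 0.506 and fiPSC at 0.498, 0.217 and 0.601. The mean in SSC was 132 times that in SSCiPSC (log2 fold change -5.45, SE 0.25, limma adjusted p = 5.13e-05, and -6.79 with a pseudocount of 0.1). All 6 further loci of the interval were lower in the mean in both kinds of iPSC.

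Zeb1 (chr18:5591881-5772749) also fell. Its level was 20.8, 17.1 and 11.7 FPKM in SSC, 8.17, 6.22 and 7.37 in SSCiPSC and 4.48, 6.10 and 5.97 in fiPSC, so that the gene stayed measurable in every iPSC library. Its 7 further loci were also lower in the mean in both kinds of iPSC. The mean in SSC was 2.29 times that in SSCiPSC, and the log2 fold change was -1.06 (SE 0.25, limma adjusted p = 0.0117). With all loci of the gene summed it was -1.90 (limma adjusted p = 0.000462), and in fiPSC against SSC -2.52 in place of -1.41.

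Vim (chr2:13573955-13582671) was the most abundant of the 8 genes, each read at its chosen locus, in each SSC and SSCiPSC library. It was at 319, 291 and 509 FPKM in SSC, at 214, 259 and 218 in SSCiPSC and at 120, 122 and 172 in fiPSC. SSC replicate 3 stood apart on the high side. The log2 fold change in SSCiPSC was -0.65 (SE 0.23, limma adjusted p = 0.0554). It passed the threshold without SSC replicate 2 (-0.81, limma adjusted p = 0.0362), in the fit of all 9 libraries (limma adjusted p = 0.0374) and under quantile normalization (-1.79, limma adjusted p = 0.000668).

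Read side by side within a library, Cdh2 was 4.71, 6.83 and 5.73 times as high as Cdh1 in the 3 SSC libraries. In every iPSC library Cdh1 exceeded Cdh2, by 297, 308 and 1216 times in SSCiPSC and by 661, 668 and 346 times in fiPSC. These ratios rest on very few Cdh2 fragments in the iPSC, and the 1216-fold value of SSCiPSC replicate 3 on about 8. They also use only the chosen locus of Cdh2. Its 18 further loci, at 13.9 to 56.6 FPKM in the mean of SSC, were left out. The size of the ratio in SSC therefore depends on the loci counted.

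**Figure D2:**
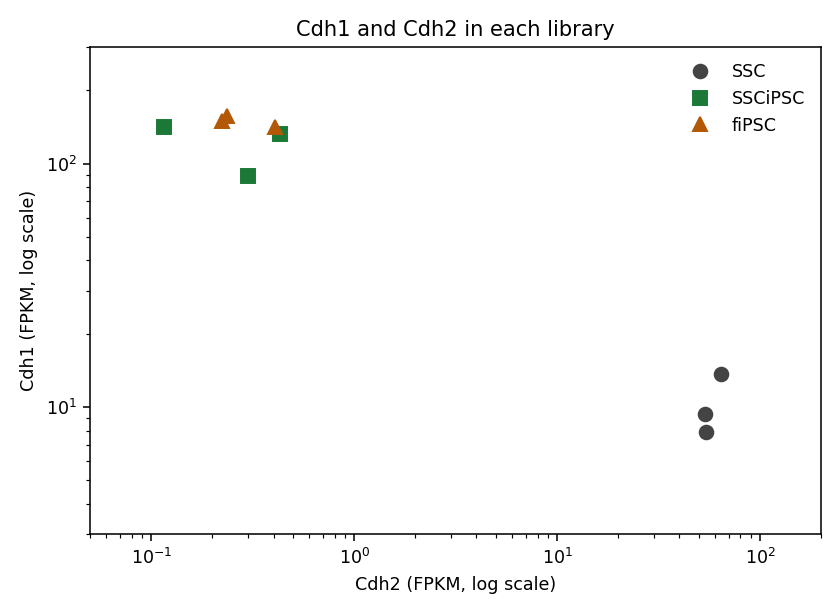
Cdh1 against Cdh2 in each library, both in FPKM on log axes (circles SSC, squares SSCiPSC, triangles fiPSC). Cdh2 is read at its chosen locus only. The 3 SSC libraries sit at the lower right, with Cdh2 above 53 FPKM and Cdh1 below 14, and the 6 iPSC libraries at the upper left.

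For Cldn6 and Cldn7, which also encode tight junction claudins, the table gives loci whose interval spans several genes, and no locus there was assigned to 1 gene. The interval chr17:23668762-23681804 holds Cldn6, Thoc6, Hcfc1r1 and Tnfrsf12a. Of its loci on the plus strand, the strand of Cldn6 and of Hcfc1r1, one was at 0.782, 0.598 and 0 FPKM in SSC, at 13.6, 11.5 and 5.10 in SSCiPSC and at 43.2, 25.6 and 34.9 in fiPSC, and the other was at 9.82 to 11.9 in SSC, 3.53 to 5.19 in SSCiPSC and 4.98 to 6.15 in fiPSC. In SSCiPSC the first rose by 2.87 on the log2 scale (limma adjusted p = 0.00192) and the second fell by 1.24 (limma adjusted p = 0.00364). In fiPSC against SSC the first rose by 4.62 (limma adjusted p = 0.000139) and the second fell by 0.91 (limma adjusted p = 0.00445). In the interval chr11:69964897-69999990, with Cldn7, Elp5, Ctdnep1, Gabarap and Phf23, 1 plus-strand locus was at 1.13, 1.03 and 1.51 FPKM in SSC, 2.74, 2.26 and 2.44 in SSCiPSC and 5.63, 5.19 and 5.33 in fiPSC. The other plus-strand locus was at 70.1, 77.8 and 77.2 in SSC, 51.8, 76.0 and 59.1 in SSCiPSC and 57.3, 48.6 and 59.3 in fiPSC, and was lower in fiPSC than in SSC by 0.44 on the log2 scale (limma adjusted p = 0.0179). The groups of the first did not overlap, and its difference of 0.65 between SSCiPSC and SSC missed the threshold (limma adjusted p = 0.0514), while fiPSC exceeded SSC by 1.53 (limma adjusted p = 0.00147).

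fiPSC were set beside SSC with the same SSC libraries as above, so that the values are not independent of those for SSCiPSC. Again 7 of the 8 genes passed, against 51.8% of 38007 loci, with 3 higher (background 28.0%) and 4 lower (23.7%), and 7 did not overlap (background 61.6%). Cdh1 was 14.5 times as high as in SSC, Epcam 3.12 times and Cldn4 12.2 times (26.1 times without SSC replicate 3). Their log2 fold changes were 3.76, 1.63 and 3.58, and the largest limma adjusted p of the 3 was 0.00165. Under quantile normalization that of Epcam shrank to 0.86 and still passed (limma adjusted p = 0.00326). Cdh2 fell by 5.49 on the log2 scale, Zeb2 by 5.51, Zeb1 by 1.41 and Vim by 1.40, with limma adjusted p of at most 0.0046. Cdh2 and Zeb2 again entered the test only through SSC and could only be lower. Among the alternatives the log2 fold change reached -8.13 for Cdh2 and -6.98 for Zeb2, and that of Vim was -2.35 under quantile normalization. Esrp1, with -0.38 (SE 0.24, limma adjusted p = 0.233), did not pass.

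**Figure D3:**
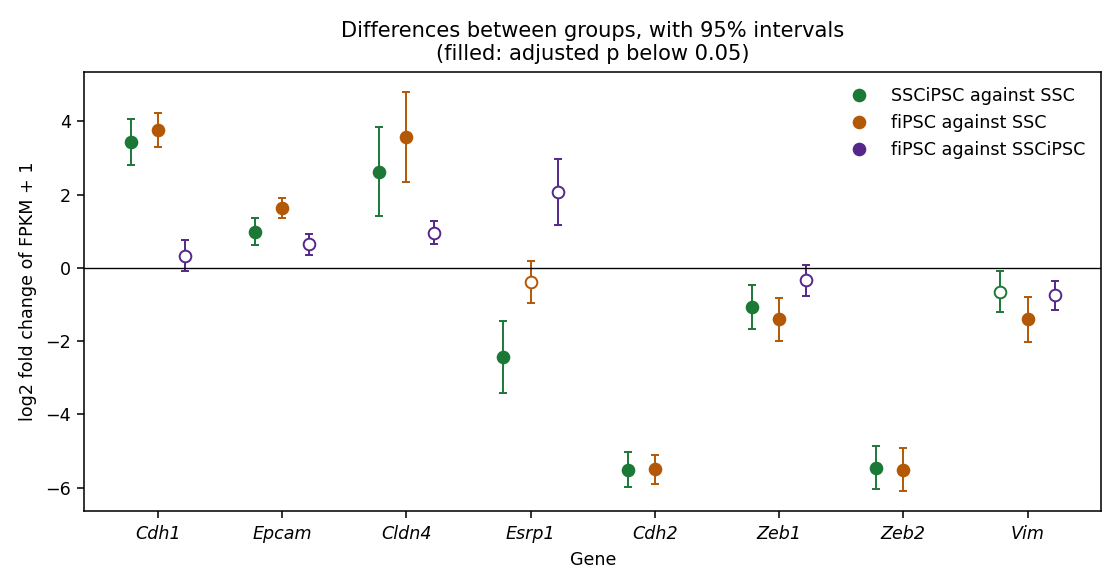
Log2 fold change of FPKM + 1 for each gene in the 3 comparisons, as points with 95% intervals from limma, filled where the adjusted p is below 0.05. Cdh2 and Zeb2 have no point for fiPSC against SSCiPSC because both groups were below 1 FPKM, and no point of that comparison is filled.

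fiPSC against SSCiPSC asks whether the cell of origin left a difference in these genes. Of the 6 genes tested 0 passed the threshold in limma, against 0.0678% of 33948 loci, and 4 had an unadjusted p below 0.05, against 11.7% of loci. The libraries of the 6 genes did not overlap between the groups, against 18.6% of loci. Cdh1, Epcam, Cldn4 and Esrp1 were the higher ones in fiPSC (background 9.41%), and Zeb1 and Vim the lower ones (9.23%). For Cdh1 the nearest libraries were both at 141 FPKM, and under median-ratio scaling or quantile normalization its groups overlapped.

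The largest of these differences was that of Esrp1, at 15.7 ± 3.63 FPKM in fiPSC and 3.33 ± 2.43 in SSCiPSC (SD, n = 3 each). It came to 2.06 on the log2 scale, with a 95% interval of 1.17 to 2.96 (limma adjusted p = 0.184), and the ratio of the means was 4.72, or 8.07 without SSCiPSC replicate 2. Cldn4 was 1.98 times as high in fiPSC (log2 0.96, interval 0.64 to 1.27, limma adjusted p = 0.103), and Epcam 1.56 times (0.65, interval 0.36 to 0.94, limma adjusted p = 0.191). Vim was lower by 0.75 (interval -1.14 to -0.36, limma adjusted p = 0.217). For Cdh1 (0.33, interval -0.10 to 0.75) and Zeb1 (-0.34, interval -0.76 to 0.08) the interval included 0. Cdh2 and Zeb2 were too low for the test, at 0.289 and 0.281 FPKM for Cdh2 and 0.439 and 0.498 for Zeb2 in the mean of fiPSC and SSCiPSC. The origin and the particular clones cannot be told apart.

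Genes that work beside these 10 were read from lists, for which the background in SSCiPSC against SSC is again 26.2% of all loci called higher and 24.1% called lower. Among the junction partners, the catenins and scaffold proteins that anchor cadherins and tight junctions together with other membrane proteins of the junctions, 5 of 15 tested genes rose in SSCiPSC against SSC and 6 fell, with a median log2 fold change of 0.26 against 0.11 for all loci. Ctnna1, alpha-catenin, which links cadherins to actin, rose from 64.9 to 180 FPKM in the mean (log2 1.46, limma adjusted p = 0.000277). Tjp1, the tight junction scaffold ZO-1, fell from 109 to 64.4 FPKM (-0.76, limma adjusted p = 0.0249), and Nectin2, an adhesion molecule of adherens junctions, fell from 89.6 to 47.7 (-0.91, limma adjusted p = 0.00284). The shares of 33.3% higher and 40.0% lower stand near and above that background.

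Of the epithelial regulators and products 7 of 15 rose and 3 fell (46.7% and 20.0%, against 26.2% and 24.1% of all loci), with a median of 0.73. Spint1, an inhibitor of surface serine proteases, rose from 19.9 to 56.1 FPKM (log2 1.44, limma adjusted p = 0.00106), and Grhl3, a Grainyhead transcription factor of epithelia, from 7.39 to 39.3 (2.52, limma adjusted p = 0.00923). Spint2, a close relative of Spint1, was at 43.9 in SSC and 58.4 in SSCiPSC and did not pass (limma adjusted p = 0.176). Pard6b went from 38.8 to 8.62 FPKM in the mean, Lsr from 23.3 to 10.7 and Grhl1 from 8.74 to 2.31. These genes were named after their values were seen.

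Only 6 of 19 other claudins had a locus of their own. Cldn11, the claudin of the Sertoli cell barrier, was at 51.1, 42.0 and 18.6 FPKM in SSC and at most 0.0391 in any iPSC library. Cldn3 was at 1.89 in SSC, 1.33 in SSCiPSC and 6.97 in fiPSC in the mean. The strandless locus named for Cldn9 also touches the end of Cldn6 and is uncertain. The 3 SSC libraries held 0.209, 0.399 and 1.33 FPKM of it, and SSCiPSC held 5.44, 4.41 and 2.18 (limma adjusted p = 0.0144). In all 1 of 5 tested claudins rose and 3 fell, with a median of -1.60. The 1 that rose was the uncertain Cldn9 locus. Cldn1, Cldn5 and Cldn11 were below 1 FPKM in every SSCiPSC library. They entered the test only through SSC and could only be lower.

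Among 4 tested cadherins outside the 10 genes 0 rose and 2 fell in SSCiPSC, with a median of -0.74. Cdh3, P-cadherin, was at 15.4 FPKM in SSC and 15.1 in SSCiPSC, and in fiPSC at 27.3 (limma adjusted p = 0.151 against SSCiPSC). Cdh5, the cadherin of vessel walls, was at 22.2, 12.6 and 27.2 in SSC and below 0.05 in all 6 iPSC libraries. Cdh24 stayed between 2.06 and 4.29 FPKM in all 9 libraries.

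Of 7 tested EMT transcription factors beside Zeb1 and Zeb2, 0 rose and 4 fell in SSCiPSC, with a median of -1.11. The 4 were Twist1, Snai1, Snai2 and Foxc2, the last 3 named here after their values were seen. Twist1, a helix-loop-helix factor of mesenchyme, fell from 8.48 to 0.767 FPKM (-2.44, limma adjusted p = 0.000522). Tcf3, an E-box binding factor of broad expression, was at 41.3 in SSC and 41.4 in SSCiPSC, and Tcf4 at 14.8 and 10.9, and neither passed (limma adjusted p = 0.974 and 0.249).

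In the TGF-beta pathway, whose ligands are known inducers of EMT, 1 of 12 genes rose and 8 fell (8.33% and 66.7%, against 26.2% and 24.1% of all loci), with a median of -1.59. Smad2, a signal transducer of the pathway, fell from 42.4 to 26.2 FPKM (-0.67, limma adjusted p = 0.00813). Skil, a repressor of Smad signalling, was at 27.5 and 28.6, and the ligand Tgfb2 at 37.6 and 27.6, and neither passed (limma adjusted p = 0.874 and 0.170).

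Vimentin belongs to the intermediate filaments, and in a list of 11 other filament genes that includes their linker Plec, 4 rose in SSCiPSC and 5 fell (36.4% and 45.5%, against 26.2% and 24.1% of all loci), with a median of 0.72. The lamins, which line the nucleus, had the highest means over the 9 libraries. Lmnb1 rose from 30.6 to 146 FPKM (limma adjusted p = 0.000469) and Lmnb2 from 5.06 to 42.2 (2.86, limma adjusted p = 0.000319), whereas Lmna fell from 66.2 to 28.4 (-1.20, limma adjusted p = 0.00272).

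Of 18 mesenchymal products, proteins of the matrix and of contractile fibres and surface receptors of mesenchymal cells, 1 rose and 13 fell, with a median of -1.46. Sparc, a matrix glycoprotein, fell from 376 to 165 FPKM (-1.18, limma adjusted p = 0.000697) and Tpm1, a tropomyosin, from 221 to 62.4 (-1.81, limma adjusted p = 0.000156). The 1 that rose was Fn1, fibronectin, from 30.0 to 161 FPKM (2.37, limma adjusted p = 0.000383). Against SSC, fiPSC gave 1 higher and 13 lower among the same 18 genes and 1 and 10 of 12 in the TGF-beta pathway. They gave 9 and 3 of 15 epithelial regulators and products, 9 and 6 of 16 junction partners and 5 and 3 of 11 intermediate filaments. The other claudins gave 2 and 3 of 5, the other cadherins 1 and 2 of 4 and the EMT transcription factors 0 and 4 of 8. The background there was 28.0% of all loci called higher and 23.7% called lower. A gene below 1 FPKM in every fiPSC library could only be lower, as above. Between fiPSC and SSCiPSC 0 of the 74 tested genes of these 8 lists passed in limma, and 24 (32.4%) had an unadjusted p below 0.05, against 11.7% of all loci.

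**Figure D4:**
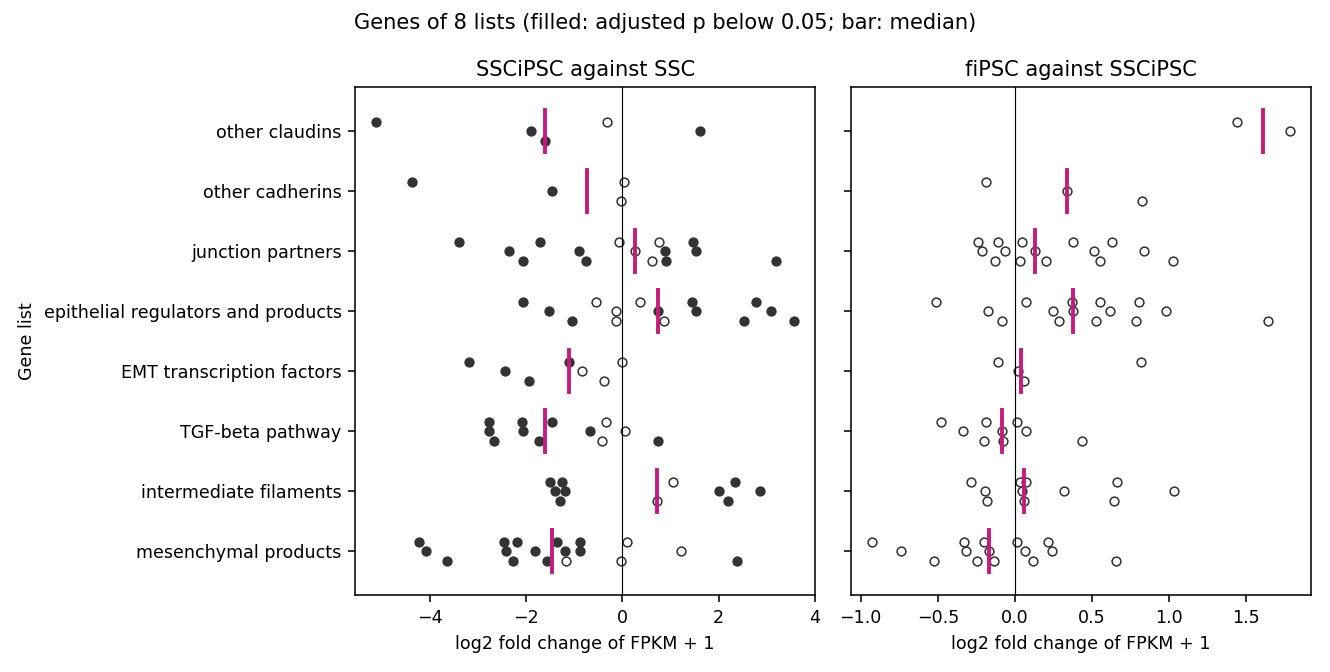
Log2 fold change of FPKM + 1 for the tested genes of 8 lists, SSCiPSC against SSC at left and fiPSC against SSCiPSC at right (points genes, filled where the limma adjusted p is below 0.05, bars the list's median). At left the mesenchymal products and the TGF-beta pathway lie mostly below 0, and at right, on a narrower axis, no point is filled.

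Markers of other cells moved with the same comparison, where 26.2% of all loci were called higher and 24.1% lower. In SSC the germ line genes were present, led by Dazl, an RNA-binding protein of germ cells, at 194, 263 and 174 FPKM, against 34.9, 42.3 and 36.2 in SSCiPSC. Etv5 and Lin28a, the next genes of that list by level, lay the other way. Etv5 was at 32.8 FPKM in the mean of SSC and 123 in SSCiPSC, and Lin28a at 40.6 and 96.1. In the germ line list 4 of 14 genes rose (28.6%, near that background) and 8 fell (57.1%). The pluripotency list rose in 8 of 8 genes and summed to 10.1 to 21.6 FPKM in SSC and 1322 to 1747 in the iPSC. Nanog, a core factor of pluripotency, was listed at 0 in the 3 SSC libraries. Tdgf1 was at 0.0698 FPKM in the mean of SSC and 289 in SSCiPSC, and L1td1 at 0.122 and 272.

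Genes of the somatic testis cells were also read in SSC. The 7 Sertoli genes summed to 1051, 1035 and 835 FPKM there, led by Clu at 713, 645 and 538, and Cst12 stood at 197, 271 and 206 and at 0 in all 6 iPSC libraries. In SSCiPSC 6 of the 7 fell and 1, the homeobox gene Rhox5, rose from 1.59 to 260 FPKM and made up most of the iPSC sum of 170 to 303. The 3 Leydig genes, of steroid synthesis and its control, summed to 160, 124 and 236 FPKM in SSC, led by Cyp11a1, and to at most 0.358 in any iPSC library. Cyp17a1 fell from 57.0 to 0.0221 FPKM, and Lhcgr from 9.52 to 0.

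Peritubular myoid genes summed to 85.8, 76.9 and 70.2 FPKM in SSC and 8.98 to 12.5 in the iPSC, and 2 of 4 fell in SSCiPSC (50%, against 24.1% of all loci). Acta2, smooth muscle actin, led them in SSC with 68.1, 65.5 and 53.9, and Myh11 was at 10.4 in the mean and at 0 in SSCiPSC. Des was at 3.15 in the mean of SSC, 5.83 in SSCiPSC and 6.10 in fiPSC, and did not pass in either comparison with SSC (limma adjusted p = 0.155 and 0.112). The endothelial genes summed to 118, 59.2 and 97.0 in SSC and 105 to 145 in the iPSC, where Pecam1, which pluripotent cells are known to express too, held most of the sum. In that list 2 of 6 genes rose in SSCiPSC, Pecam1 and Egfl7, and 3 fell (33.3% and 50%, against 26.2% and 24.1% of all loci). The macrophage genes summed to 55.3, 19.6 and 158 in SSC and 8.93 to 14.4 in the iPSC, with 5 of 6 lower in SSCiPSC (83.3%, against 24.1%). C1qa and C1qb, of the complement system, were at 51.1 and 32.7 in SSC replicate 3, while Cd68 did not differ beyond its spread (limma adjusted p = 0.515).

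Fibroblast or feeder genes summed to 98.9, 93.2 and 279 FPKM in SSC, to 32.4, 21.6 and 43.8 in SSCiPSC and to 35.0, 11.5 and 44.6 in fiPSC, and 5 of 8 fell in SSCiPSC (62.5%, against 24.1%). Col3a1, a fibrillar collagen, led them in every library. Dcn, of the same matrix, was at 21.7, 20.1 and 82.8 in SSC and at most 6.88 in SSCiPSC, and Col1a2 at 15.6, 16.3 and 47.3 in SSC and at most 8.51 in SSCiPSC. SSC replicate 3, which had the highest macrophage and fibroblast sums, was also the highest SSC library for Vim, Zeb2 and Cldn4 and the lowest for Zeb1, Esrp1, Epcam and Cdh2. Without it the 8 genes gave the same calls in SSCiPSC against SSC. In bulk RNA fewer cells of a type and less RNA per cell cannot be told apart. The part of the other cells in the levels of the 8 genes, epithelial and mesenchymal, was not tested.

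**Figure D5:**
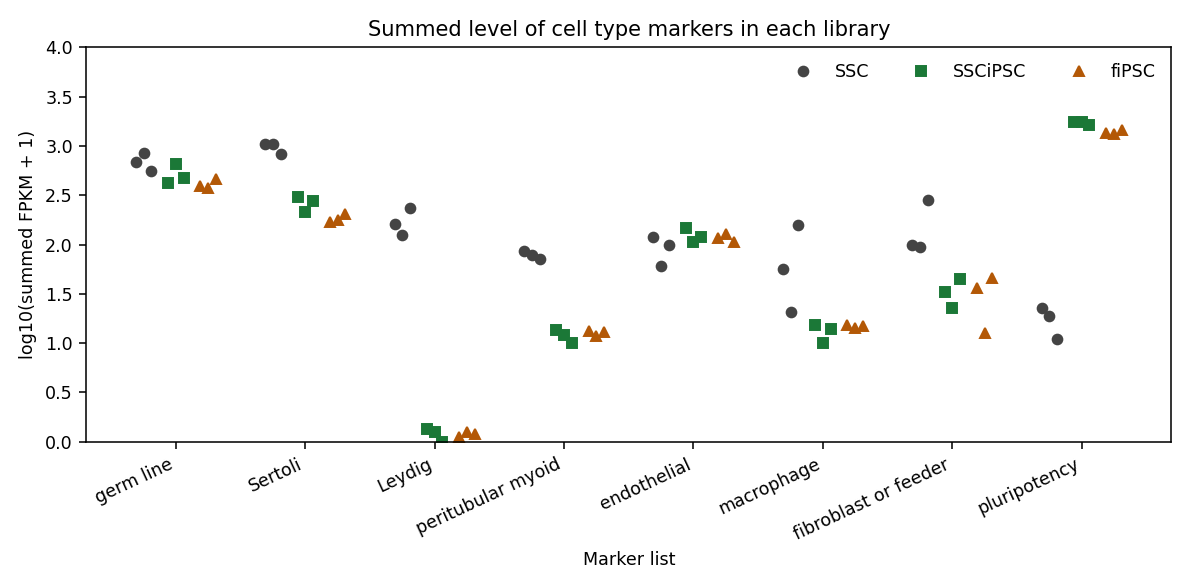
Summed level of each marker list in each library, as log10(summed FPKM + 1) (circles SSC, squares SSCiPSC, triangles fiPSC). Leydig, peritubular and Sertoli sums are higher in the 3 SSC libraries than in any iPSC library, and the pluripotency sums are lower.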

How the data were processed

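RNA was extracted from SSC, SSCiPSC and fiPSC (3 libraries each) and sequenced as paired ends. The labels name both a depletion of ribosomal RNA and a stranded mRNA kit, and the study's methods the mRNA kit. The submitters' processing notes name Trimmomatic 0.32, TopHat2 2.0.9, Bowtie2 2.1.0, Cufflinks 2.2.1, Cuffdiff and the build mm9. The deposited values are FPKM per Cufflinks locus, made by the authors and called RPKM in the header. The coordinates matched genes of GRCm38, whose build is used here, and not the gene names printed in the table, which were left aside. A locus was named for a gene where each covered at least 50% of the other, on the same strand or without a strand, and no other gene qualified, and the locus with the highest mean was taken. This rule was set after the table was seen. Of loci whose ends lay within 300 bp of a gene's, 98.0% had its strand. In all 24580 loci were named for 10911 genes, and 154 of 210 listed genes had a locus. The 1 locus with a blank value was left out, leaving 54913.

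Pairs of groups were compared with limma 3.58.1 (trended variance) on log2(FPKM + 1), for every locus that reached 1 FPKM in 3 or more of the 6 libraries. A locus below 1 FPKM in every library of 1 group entered only through the other group and could only be lower in the first. The same filter set the loci behind the background shares. The p-values were adjusted over all these loci by the Benjamini-Hochberg method and the threshold was 0.05. Depth is not given in the sources used here and was estimated from the steps between low values. The tests were checked on simulated data. With equal spread in both groups they recovered nearly all planted changes with false calls near the threshold. With each group's spread as measured, a first form of the simulation, they made false calls well above the threshold and recovered fewer, most of all in the comparisons with SSC, so that the adjusted p-values may be too small. The 10 genes, the lists, the E-box letters and the rule for named genes (all 10, the 3 highest genes of each list by mean over 9 libraries, and any listed gene past the threshold between fiPSC and SSCiPSC) were chosen with earlier results of these data known. Alternatives were another pseudocount, other filters, scalings and variance models, the 9 libraries in 1 fit, a replicate block, the sum of a gene's loci, a threshold of 0.01 and each library left out on an unchanged set of loci. The count of groups that do not overlap and its rescaling were added after the data were seen.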

Additional observations from a re-analysis of the deposited data

How the results depend on the processing

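Over 15 alternatives for each of 22 gene and comparison pairs, 0 changed direction, 326 of 330 kept their side of the 0.05 threshold, 1 was lost (Epcam, SSCiPSC against SSC, quantile normalization) and 3 were gained (Vim, same comparison). Zeb1 in SSCiPSC against SSC, with limma adjusted p = 0.0117, did not pass 0.01. The cause was not tested. With a mean of at least 5 FPKM, which tests fewer loci, 10070, 10528 and 10 loci passed in SSCiPSC against SSC, fiPSC against SSC and fiPSC against SSCiPSC, in place of 18396, 19680 and 23. In the last comparison 11 passed in the fit of all 9 libraries, 9 at 0.01, and between 6 and 20 with 1 library left out. The lowest counts were 6 without fiPSC replicate 1, 7 without fiPSC replicate 3, 11 without fiPSC replicate 2 and 12 without SSCiPSC replicate 2. Median-ratio scaling moved the median log2 fold change of all loci by 0.18 in both comparisons with SSC. Libraries with the same replicate number did not deviate together (correlations from -0.24 to 0.021), so the numbers were not taken as pairs. With a replicate block 6 loci passed in fiPSC against SSCiPSC, and the counts of the 10 genes past the threshold were 7, 7 and 0 as without it. Precision is limited by the SSC libraries, where 1 fragment per kilobase was worth 0.216 to 0.722 FPKM, against at most 0.0759 in the iPSC.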
